A study of Homo sapiens with 14 samples.

Results

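The guides described here are those against genes named ZNF and a number, the largest group of zinc finger transcription factors in the library. They were taken by the target name that each table pairs with a guide, which gave 3190 of 11364 guides (28.1%) and 463 of 1633 target names; ZNF711 was not included. Of these genes, 448 had 7 guides each, and 457 had at least 3 guides and entered the gene tests. The comparison sets were 8074 guides against 1170 other genes and 100 control guides.

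Guide abundance was read by sequencing guide cassettes amplified from the genomic DNA of H9, a human pluripotent stem cell line in long use, with the genotype label WT. The cells of all 14 libraries had a Cas9 that is switched on by doxycycline, a nuclease that cuts where a guide directs it, and had received the transcription factor guides as a pool. The groups were TNNT2- and TNNT2+ cells of a 2D and of a 3D cardiomyocyte differentiation at day 25, with 3 replicates each, and undifferentiated cells at day 0, with 2 replicates. TNNT2 is cardiac troponin T, the sarcomere protein on which the cells were sorted, so a guide that is higher in TNNT2- cells was found more often in cells that did not stain as cardiomyocytes. The culture is a single parental line, and a guide's count gives neither the share of cells in which its target was cut nor the edit that resulted. The labels do not say if the day 0 replicates are separate cultures, and p-values that use them may measure technical spread only.

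C2H2 zinc finger proteins bind DNA through repeated finger modules, each folded around a zinc ion, and are the largest class of human transcription factors. Many ZNF genes also encode a KRAB domain, which recruits the co-repressor TRIM28 and, through it, the histone methyltransferase SETDB1, to silence chromatin. Large numbers of them arose by tandem duplication, above all in clusters on chromosome 19, and many KRAB zinc finger proteins bind transposable elements. In the reference gene table (GRCh38.p14) 461 of the 463 genes were found by symbol and the other two by a synonym, and 238 genes (51.4%) lay on chromosome 19. The guide sequences were not used here, so it is not known how many guides could also cut a near-identical paralogue, and values of closely related genes carry that uncertainty.

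Each library held between 22355936 and 31671019 reads. ZNF guides took between 27.9% and 29.5% of the reads in every library, close to their 28.1% of the guides. In 2D, their share was 28.4%, 28.9% and 28.8% in the TNNT2- libraries, against 29.5%, 29.0% and 29.1% in the TNNT2+ libraries. All 3 TNNT2- libraries lay below all 3 TNNT2+ libraries, with means of 28.7% ± 0.280 and 29.2% ± 0.227 (SD, n = 3 each) and a difference of -0.486 percentage points. The two-sided exact permutation p was 0.1, the smallest that 3 libraries against 3 can give. In 3D the share was 28.5% ± 0.657 in TNNT2- and 28.7% ± 0.727 in TNNT2+ libraries, the groups overlapped, and the exact permutation p was 0.7.

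In 4 libraries many guides had few reads, and these are called thin below, although their total reads were within the range of the others or above it. In the 6 libraries of 2D, between 20 and 85 of the 3190 ZNF guides had fewer than 10 reads. In 3D the number was 855 (26.8%) in TNNT2- replicate 3, 1389 (43.5%) in TNNT2+ replicate 3 and 316 (9.91%) in TNNT2- replicate 2, and it was 1027 (32.2%) in day 0 replicate 2. Guides against other genes were lost at like rates in those libraries, between 11.6% and 43.6%. Of the 100 control guides, 17, 43, 2 and 19 had fewer than 10 reads in those same libraries. The median ZNF guide was at 23.5 CPM, which are reads scaled to a common library total, in 3D TNNT2+ replicate 3, against between 51.9 and 79.8 CPM in the other libraries. In 3D TNNT2+ replicate 3 single guides were also at very high levels: ZNF549_3 stood at 922 CPM, while all 7 guides of ZNF579 together held 19 reads and all 7 of ZNF683 held 22. The number of cells behind each library is not given in the sources used here, and the part of guide loss in the results below was not tested beyond the values without these libraries.

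The first question was which ZNF guides were distributed unevenly between the fractions of the 2D differentiation. No ZNF gene was called. The gene test was limma on the mean over a gene's guides of log2(value + 10), with the Benjamini-Hochberg adjustment over all 1621 genes and a threshold of 0.05, so fold changes of low guides are understated. It called 0 of 457 ZNF genes, as of all genes (0%). At an unadjusted p under 0.05, 11 ZNF genes were higher in TNNT2- cells and 4 lower, which is 2.41% and 0.875% of them, against 2.59% and 1.23% of all genes. edgeR and DESeq2 on the recovered reads called 0 ZNF genes as well, against 0% of all genes by each tool. Of 3183 single ZNF guides limma called none (0% of all guides), and 101 (3.17%) had an unadjusted p under 0.05, against 3.34% of all guides.

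The spread of the ZNF genes in 2D was described beside that of the controls. A gene's median is the median, over its guides, of the log2 fold change of TNNT2- over TNNT2+ cells averaged over replicates. Its SD was 0.260 over the 457 ZNF genes, against 0.275 over 1164 other genes and 0.278 over 14 blocks of 7 control guides. ZNF gene medians ran from -1.03 to 1.86, with a median of -0.02, and 214 were above 0 and 243 below. Only 2 of them, ZNF491 at the top and ZNF107 at the bottom, lay further than 1 from 0.

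Replicate by replicate, somewhat more ZNF genes were lower than higher in the TNNT2- cells of 2D. The gene's median had the same sign in all 3 replicate pairs, each of the TNNT2- and TNNT2+ library of one number, for 44 ZNF genes on the higher side (9.63%) and 67 on the lower (14.7%). Over all genes these shares were 12.5% and 12.6%. By CPM summed over guides, all 3 TNNT2- libraries lay above all 3 TNNT2+ libraries for 10 ZNF genes (2.19%) and below them for 29 (6.35%), against 4.13% and 4.69% of all genes. These are counts beside their background and no test of the family.

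ZNF333, a KRAB zinc finger gene at chr19:14689787-14733742 (GRCh38.p14), was the gene with the second lowest 2D median. Its guides together stood at 265, 272 and 305 CPM in the 2D TNNT2- libraries, against 481, 365 and 388 CPM in the TNNT2+ libraries. The groups did not overlap, with means of 281 ± 21.3 and 411 ± 61.3 CPM (SD, n = 3 each). In 3D they stood at 229, 347 and 316 CPM in TNNT2- libraries, against 464, 364 and 467 CPM in TNNT2+ libraries, and again every TNNT2- library was below every TNNT2+ library.

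No other ZNF gene was that way in both systems, and none lay above in both. Over all genes the shares were 0.247% and 0.123%. The 2D median of ZNF333 was -0.70 with 6 of 7 guides lower, and the pair medians were -0.97, -0.53 and -0.35. Its 3D pair medians were -0.91, -0.28 and -0.31. The limma estimate was -0.69 ± 0.34 (SE) in 2D, with an adjusted p of 0.963, and -0.22 ± 1.11 in 3D, with an adjusted p of 0.996. Its single guides stood far apart in 3D TNNT2+ replicate 3, where ZNF333_3 had 8106 reads while ZNF333_4 and ZNF333_6 had 1 read each. Without the 3 thin 3D libraries the 3D estimate was -0.71 ± 0.55, and without TNNT2- replicate 3, TNNT2+ replicate 1 or TNNT2+ replicate 2 alone it was 0.15, 0.22 and 0.13. The median of all genes in the last 3 of these fits was 0.11, 0.05 and 0.04. The gene was among the least represented: its sum was the lowest of the 448 genes with 7 guides in 2D TNNT2- replicates 1 and 3 and in 3D TNNT2- replicate 1, and at day 0 it held 462 and 101 CPM.

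ZNF491, at chr19:11798523-11808503, had guides with few reads in single libraries. Its 2D median of 1.86 was the highest of the ZNF genes, yet its median within each replicate pair was below 0, at -0.19, -0.53 and -0.12. ZNF491_4 had 1180, 1861 and 1066 reads in the TNNT2- libraries, against 0, 1949 and 552 in the TNNT2+ libraries. ZNF491_7 had 2154, 1060 and 778 reads in the TNNT2- libraries, against 1, 2077 and 1512 in the TNNT2+ libraries.

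ZNF491_3 and ZNF491_2 likewise had 44 and 27 reads in 1 TNNT2+ library each. Guides 3, 4 and 7 were low in TNNT2+ replicate 1 and guide 2 in replicate 2, while no guide of the gene had fewer than 141 reads in replicate 3. The limma estimate was 1.08 ± 0.40 (SE, unadjusted p = 0.0139, adjusted p = 0.963). Summed over guides the gene stood at 643, 420 and 609 CPM in TNNT2- libraries, against 585, 595 and 572 CPM in TNNT2+ libraries, with overlap. On summed values the limma estimate was -0.12 and on recovered reads the edgeR estimate was -0.07, each of the opposite sign. Of the 111 ZNF genes with 1 sign in all 3 pairs of 2D, 5 had a median of averages of the opposite sign, and of the 108 in 3D it was 14.

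ZNF107, at chr7:64666133-64711577, was the lowest ZNF gene in 2D with a median of -1.03, and 6 of its 7 guides were lower in TNNT2- cells. ZNF107_4, ZNF107_5 and ZNF107_6 had 2, 0 and 2 reads in 2D TNNT2- replicate 1, and between 155 and 3879 reads in the other two TNNT2- libraries. The gene's sums were 487, 729 and 499 CPM in TNNT2- libraries, against 825, 776 and 712 CPM in TNNT2+ libraries. The groups overlapped through replicate 2, whose pair median was 0.52 where the others were -1.11 and -0.63.

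The limma estimate of ZNF107 was -1.04 ± 0.50 (adjusted p = 0.963), and -0.19 without TNNT2- replicate 1. The median over guides of the log2 values gave 0.47. In 3D its estimate was 0.20 ± 0.99 (adjusted p = 0.996), and -0.84 without TNNT2+ replicate 3, where the gene held 185 CPM. Without that library the median of all genes also moved, from -0.08 to -0.36. ZNF107_2 had the smallest p of its guides in 2D, at -1.03 ± 0.34 and lower in 3 of 3 pairs, with a limma adjusted p of 0.986 over all guides.

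ZNF813, at chr19:53467733-53496255, was higher in TNNT2- cells in all 3 pairs of 2D, at 0.32, 0.63 and 0.37. Its sums were 968, 1156 and 676 CPM in TNNT2- libraries, against 655, 783 and 611 CPM in TNNT2+ libraries, which overlap by 1 library. Its median was 0.55 with 6 of 7 guides higher, and the limma estimate was 0.42 ± 0.25 (adjusted p = 0.963). ZNF813_6 varied least, with pair values of 0.32, 0.38 and 0.37. In 3D the pair medians were -0.01, -0.56 and 0.32, the gene's median was -0.90 and the estimate 0.04 ± 0.75.

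Other genes also had 1 sign in all 3 pairs of 2D. By the rule used for naming (the largest smallest pair median on each side) these were ZNF320, ZNF486, ZNF813, ZNF177 and ZNF217 on the higher side and ZNF776, ZNF492, ZNF267, ZNF644 and ZNF333 on the lower. ZNF217, an oncogene amplified in breast cancer, had pair medians of 0.94, 0.36 and 0.26 and a limma estimate of 1.04 ± 0.43. Its gene median was only 0.08, with 5 of 7 guides higher. ZNF217_2 had 0, 0 and 188 reads in the TNNT2+ libraries, and ZNF217_4 had 1, 457 and 0. By sum ZNF217 held 365, 527 and 545 CPM in TNNT2- libraries, against 406, 457 and 404 CPM in TNNT2+ libraries, with overlap. ZNF644, a partner of the G9a and GLP histone methyltransferases, had pair medians of -0.36, -0.61 and -0.70 and an estimate of -0.20 ± 0.23. Their adjusted p was 0.963 each.

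ZNF486 stood at 574, 634 and 636 CPM in TNNT2- libraries, against 406, 506 and 518 CPM in TNNT2+ libraries, with no overlap. ZNF492 stood at 421, 377 and 522 CPM in TNNT2- libraries, against 704, 559 and 764 CPM in TNNT2+ libraries, again with no overlap and on the lower side. Their limma estimates were 1.17 ± 0.37 and -0.75 ± 0.27, with adjusted p-values of 0.963. The ZNF486 estimate included guides nearly absent from single TNNT2+ libraries. ZNF486_4 had 0 reads in TNNT2+ replicate 1, and ZNF486_5 had 1 and 0 reads in TNNT2+ replicates 1 and 2. The median of ZNF486 was 0.45 with 4 of 7 guides higher, and that of ZNF492 was -0.49 with 6 of 7 lower.

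Agreement between the 7 guides of a gene was rare in 2D. Among the 441 ZNF genes with 7 guides in the test, all 7 were higher in 1 gene, ZNF562, and all 7 lower in 3, ZNF624, ZNF771 and ZNF792. This is 0.227% and 0.680%, against 0.45% and 0.9% of all genes. ZNF624 held 637, 684 and 604 CPM in TNNT2- libraries, against 910, 840 and 712 CPM in TNNT2+ libraries, without overlap. ZNF792 held 464, 380 and 444 CPM in TNNT2- libraries, against 574, 558 and 502 CPM in TNNT2+ libraries, also without overlap. Their estimates were -0.48 ± 0.19 and -0.47 ± 0.27, with limma adjusted p-values of 0.963.

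The same question in the 3D differentiation met a far wider spread. No ZNF gene passed the test: limma and edgeR each called 0 of 457, against 0% of all genes by each, and DESeq2 called 0 ZNF genes, against 0.123% of all genes. At an unadjusted limma p under 0.05, 3 ZNF genes were higher and 9 lower, which is 0.656% and 1.97%, against 0.802% and 2.1% of all genes. Of 3179 single guides limma called none (0% of all guides), and 34 (1.07%) were under an unadjusted 0.05, against 1.29% of all guides.

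The SD of ZNF gene medians in 3D was 0.871, against 0.905 for other genes and 0.611 for the control blocks. Without the 3 thin libraries it was 0.398, against 0.403 for other genes and 0.410 for the control blocks. Medians ran from -2.52 (ZNF431) to 2.45 (ZNF682), and 102 ZNF genes (22.3%) lay further than 1 from 0, against 22.7% of all genes. By pair, the SD over ZNF genes was 0.490 in pair 1, 0.847 in pair 2 and 2.24 in pair 3, the pair with both of the most depleted day 25 libraries.

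ZNF10, at chr12:133130627-133159465, encodes KOX1, the protein whose KRAB domain is fused to inactive Cas9 in common repressor tools. In 3D its sums were 650, 520 and 787 CPM in TNNT2- libraries, against 655, 888 and 1970 CPM in TNNT2+ libraries, and the groups overlapped. The 1970 CPM in TNNT2+ replicate 3 was the highest sum of a ZNF gene with 7 guides in that library. It came mainly from ZNF10_1, ZNF10_2 and ZNF10_3, with 11103, 11157 and 19290 reads there, while ZNF10_4 had 1.

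All 7 guides of ZNF10 were lower in the TNNT2- cells of 3D, with a median of -1.38 and pair medians of -0.33, -0.42 and -3.47. Its limma estimate was -1.72 ± 0.64 (unadjusted p = 0.0143, adjusted p = 0.990). Without TNNT2+ replicate 3 the estimate was -1.01 and without the 3 thin libraries -0.80. The median of all genes in these fits was -0.36 and 0.04, against -0.08 with all libraries. In 2D the gene leaned the other way, with sums of 844, 851 and 715 CPM in TNNT2- libraries, against 844, 759 and 513 CPM in TNNT2+ libraries. That estimate was 0.73 ± 0.22, the smallest unadjusted p of the ZNF genes in 2D (0.00421) with an adjusted p of 0.963, although pair 1 had a median of -0.62 and pairs 2 and 3 had 0.29 and 1.05. ZNF10_4 and ZNF10_7 gave the largest values, with 1 and 0 reads in a single TNNT2+ library each. On values summed over guides the 2D estimate was 0.19.

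The difference between the systems was itself tested. For ZNF10 the 3D minus 2D difference of the sort ratio was -2.33 ± 0.69 (limma, unadjusted p = 0.00352, adjusted p = 0.997). No ZNF gene passed this test, as no gene did (0%). Under an unadjusted p of 0.05 came 0 on the higher side (0% of all genes) and 6 ZNF genes on the lower (1.31%), against 1.23% of all genes. The differences were 1.28 ± 1.36 for ZNF107, -2.08 ± 1.38 for ZNF491 and -0.31 ± 0.96 for ZNF813.

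In 3D, 40 ZNF genes (8.75%) had a median above 0 in all 3 pairs and 68 (14.9%) below, against 9.69% and 13.9% of all genes. By summed CPM, 15 ZNF genes (3.28%) had every TNNT2- library above every TNNT2+ library and 20 (4.38%) below, against 4.32% and 4.19% of all genes. By pair medians, the lower side was led by ZNF341, ZNF274, ZNF793, ZNF76 and ZNF597, and the higher side by ZNF23, ZNF524, ZNF670, ZNF680 and ZNF583. The limma estimate of ZNF670 was -0.13, of the opposite sign, with 4 of 7 guides higher. That of ZNF583 was 0.37, but -0.39 on values summed over guides, where the median of all genes was -0.31.

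ZNF341, an activator of STAT3 transcription, stood at 384, 290 and 455 CPM in the TNNT2- libraries of 3D, against 589, 673 and 644 CPM in the TNNT2+ libraries, with no overlap. Its pair medians were -1.09, -3.54 and -1.75, and its estimate was -1.92 ± 0.81 (limma adjusted p = 0.990). Without TNNT2- replicate 2 the estimate was -1.20 and without the 3 thin libraries -0.55. In 2D it held 291, 366 and 576 CPM in TNNT2- libraries, against 186, 308 and 458 CPM in TNNT2+ libraries, so its TNNT2- level was the higher one there in 3 of 3 pairs.

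ZNF274, which recruits SETDB1 to the 3′ ends of zinc finger genes on chromosome 19, came next by smallest pair median in 3D, with pairs of -1.05, -1.10 and -1.28. By sum, however, it held 440, 498 and 464 CPM in TNNT2- libraries, against 785, 457 and 557 CPM in TNNT2+ libraries, and the groups overlapped. The estimate was -1.24 ± 0.75 (limma adjusted p = 0.990). ZNF76 had pair medians of -0.64, -1.30 and -1.01 and an estimate of -1.76 ± 1.27, with the same adjusted p.

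All 7 guides of a gene were lower in 3D for 8 of 437 ZNF genes (1.83%) and higher for 3 (0.686%), against 1.43% and 0.649% of all genes. The 3 higher ones, named after their values were seen, were ZNF281, ZNF500 and ZNF579. ZNF281, a factor that binds pluripotency genes in stem cells, stood at 506, 466 and 537 CPM in TNNT2- libraries, against 409, 497 and 208 CPM in TNNT2+ libraries, and its estimate was 1.07 ± 0.99. ZNF579 had 738, 566 and 607 CPM in TNNT2- libraries, against 634, 461 and 0.776 CPM in TNNT2+ libraries, so its pair median of 6.26 in replicate 3 rests on the library that had lost it.

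Taking both systems, 5 ZNF genes had a median above 0 in all 6 pairs (1.09%) and 9 below 0 (1.97%), against 1.36% and 2.04% of all genes. A further 16 (3.50%) had 1 sign in all pairs of 2D and the opposite sign in all pairs of 3D, against 2.65% of all genes. The higher ones were ZNF583, ZNF85, ZNF670, ZNF316 and ZNF750. The lower ones were ZNF333, ZNF770, ZNF491, ZNF488, ZNF395, ZNF768, ZNF80, ZNF880 and ZNF146. Of these 14, ZNF333 had the largest smallest pair median, at 0.278 in size, and for the others it ran from 0.00325 (ZNF750, a regulator of epidermal differentiation) to 0.187 (ZNF770). Some limma estimates had the opposite sign, at -0.13 for ZNF670 and 0.18 for ZNF488 in 3D and 1.08 for ZNF491 in 2D.

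The second question was which guides were gained or lost between day 0 and day 25. Here the 2 day 0 libraries served both systems, so the 2D and 3D results share them. The limma estimate was shifted for all genes: their median was 0.82 in 2D and 0.70 in 3D, against -0.01 and 0.01 with edgeR. Without day 0 replicate 2, a thin library, the median was 0.07 in 2D and 0.26 in 3D, and in 3D it was 0.29 without TNNT2- replicate 3 and 0.27 without TNNT2+ replicate 3. Estimates for day 25 are therefore given minus the median of all genes, while their SE and p belong to the estimate before that subtraction, tested against 0.

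No ZNF gene was called at day 25 by limma or edgeR, in 2D or in 3D (0% of all genes by each). At an unadjusted limma p under 0.05, 14 ZNF genes were higher at day 25 in 2D and 2 lower, which is 3.06% and 0.438%, against 2.96% and 0.37% of all genes. In 3D, 47 were higher (10.3%) and 0 lower, against 11% and 0.0617% of all genes. DESeq2 called 3 ZNF genes higher and 6 lower in 2D, against 0.925% and 1.11% of all genes, and 2 higher and 0 lower in 3D, against 0.617% and 0.123%. Of single ZNF guides limma called none in 2D (0% of all guides) and none in 3D (0.00882% of all guides). An unadjusted p under 0.05 was reached by 214 guides (6.72%) in 2D and 163 (5.13%) in 3D, against 6.44% and 4.64% of all guides.

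The SD of ZNF gene medians was 1.26 in 2D and 0.998 in 3D, against 1.29 and 1.07 for other genes and 0.460 and 0.638 for the control blocks. Without day 0 replicate 2 it was 0.337 in 2D, against 0.340 for other genes and 0.289 for control blocks, and 0.550 in 3D, against 0.552 and 0.394. In day 0 replicate 2 the median guide stood at 51.9 CPM for ZNF guides, against 53.8 CPM for guides to other genes and 83.1 CPM for control guides. Fewer than 10 reads were found for 32.2% of ZNF guides, against 19 of the 100 control guides.

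ZNF292, at chr6:87155565-87265943, encodes a large zinc finger protein whose loss is linked to neurodevelopmental disorder, and DESeq2 called it higher at day 25 in both systems. Its sums at day 25 were 594, 685 and 810 CPM in the 2D TNNT2- libraries and 981, 721 and 731 CPM in the 2D TNNT2+ libraries. In 3D they were 684, 934 and 969 CPM in TNNT2- and 878, 595 and 701 CPM in TNNT2+ libraries. At day 0 the gene held 459 and 186 CPM, below all 12 day 25 libraries.

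In 3D all 7 guides of ZNF292 were higher at day 25, with a median of 3.46. The size of this median depended on the day 0 library. Pair medians were 0.81, 1.06 and 2.57 against day 0 replicate 1, and 4.98, 5.45 and 6.84 against the thin day 0 replicate 2. Pair and gene medians are given without subtraction. In the pair that gave 2.57, replicate 3 of 3D over day 0 replicate 1, the median over ZNF genes was 1.33, and over other genes 1.38. In day 0 replicate 2, ZNF292_1, ZNF292_4, ZNF292_6 and ZNF292_7 had 15, 10, 10 and 3 reads. The limma estimate was 2.11 above the median of all genes (SE 0.74, adjusted p = 0.436). DESeq2 gave log2 fold changes of 1.20 ± 0.34 in 2D (adjusted p = 0.0333) and 1.31 ± 0.35 in 3D (adjusted p = 0.0327), while the edgeR adjusted p was 0.585 in 2D and 0.808 in 3D. Its 2D values were added because the rule named it in 3D.

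By summed CPM, 26 ZNF genes (5.69%) had all 6 day 25 libraries of 2D above both day 0 libraries and 24 (5.25%) below, against 5.74% and 6.23% of all genes. In 3D it was 12 (2.63%) above and 11 (2.41%) below, against 3.02% and 3.33%. ZNF655 held 632, 508 and 438 CPM in 2D TNNT2- libraries and 412, 618 and 520 CPM in 2D TNNT2+ libraries, against 283 and 317 CPM at day 0. ZNF157 held 585, 561 and 463 CPM in 2D TNNT2- and 531, 547 and 521 CPM in 2D TNNT2+ libraries, against 801 and 809 CPM at day 0.

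Both were called by DESeq2 in 2D, ZNF655 higher at 0.76 ± 0.18 (adjusted p = 0.00355) and ZNF157 lower at -0.62 ± 0.13 (adjusted p = 0.00207). The other DESeq2 calls in 2D were ZNF827, higher, and ZNF140, ZNF208, ZNF544, ZNF112 and ZNF613, lower. For ZNF544 and ZNF613 DESeq2 gave -0.51 and -0.44, while their gene medians were 0.04 and 0.31, of the opposite sign. ZNF827 held 340 and 189 CPM at day 0, and ZNF827_2, ZNF827_3 and ZNF827_4 had 1, 0 and 3 reads in day 0 replicate 2. In 3D the other call was ZNF256, higher at 0.73 ± 0.17 (adjusted p = 0.00461). These genes are named because DESeq2 called them, after their values were seen.

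The sign was the same in all 6 pairs of a replicate number and a day 0 library for 43 ZNF genes on the higher side and 43 on the lower in 2D (9.41% each), against 10.8% and 9.81% of all genes. In 3D it was 54 higher (11.8%) and 3 lower (0.656%), against 13.4% and 0.925%. ZNF311 and ZNF114 led the higher side in 2D. ZNF311 had pair medians between 0.65 and 1.38 against day 0 replicate 1 and between 5.55 and 5.99 against day 0 replicate 2, and its estimate was 1.92 above all genes (SE 1.33, limma adjusted p = 0.411). ZNF845 led the lower side in 3D and was on it in 2D, at estimates of -1.46 (SE 0.62, adjusted p = 0.566) and -0.99 (SE 0.28, adjusted p = 0.648) relative to all genes.

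None of the remaining leading genes was called by limma at day 25. On the higher side these were ZNF362 in 2D, at 0.69 above all genes (SE 0.73), and ZNF12 and ZNF71 in 3D, at 1.68 (SE 0.82) and 0.71 (SE 1.06). On the lower side they were ZNF140 and ZNF836 in 2D, at -0.95 (SE 0.40) and -0.95 (SE 0.35), and ZNF618 and ZNF205 in 3D, at -0.94 (SE 0.63) and -0.41 (SE 0.82). ZNF140 was also called lower by DESeq2 in 2D. ZNF205 was below 0 in all 6 pairs of 3D, but its gene median was 0.34 with 5 of 7 guides higher, and its estimate before the subtraction was 0.30.

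The 4 genes followed through both sorts had no common direction at day 25. ZNF10 stood at 0.91 above all genes in 2D (SE 0.82) and 1.31 in 3D (SE 0.76), and its sums were 633 and 514 CPM at day 0. ZNF491 stood at 0.69 (SE 0.91) and 0.10 (SE 0.99), and ZNF107 at 0.21 (SE 0.60) and -0.24 (SE 0.79). ZNF813 stood at -0.56 (SE 0.32) in 2D and -1.05 (SE 0.63) in 3D, and at 0.10 in 2D without day 0 replicate 2, in which it held 1322 CPM against 775 CPM in replicate 1.

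Related groups of genes gave no call either. Among 42 genes of the ZFP, ZKSCAN and ZSCAN families, which are also C2H2 proteins, none was called by limma in any of these comparisons, and the median of their gene medians was 0.11 in 2D and -0.09 in 3D, against 0.02 and -0.13 for all genes. Of 14 co-repressors of the KRAB pathway only SETDB1 and DNMT1 were measured. SETDB1 had medians of 0.23 in the 2D sort and -0.77 in the 3D sort, with 4 and 3 of 7 guides higher. DNMT1, the maintenance DNA methyltransferase, had medians of 0.45 and 0.44, with 4 and 6 of 7 guides higher. Their adjusted p-values were 0.963 in 2D and 0.990 in 3D.

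Within the ZNF genes, those on chromosome 19 were set beside the rest as a description, with no test of the difference. The median of their gene medians was -0.02 over 236 genes in the 2D sort, against -0.01 over 221 genes on other chromosomes, and in 3D it was -0.10 against -0.11. At day 25 it was 0.08 against 0.21 in 2D and 0.41 against 0.46 in 3D. Of 15 ZNF genes with roles in transposon control, imprinting or heterochromatin, 8 had a median above 0 in the 2D sort and 7 in the 3D sort. ZNF587, which represses HERV-K elements, was furthest from 0 in 3D at 1.94, with pair medians of 0.39, 0.22 and 5.10.

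Of 26 ZNF genes with roles in growth, pluripotency or development, 14 were above 0 in 2D and 8 in 3D, where their median was -0.34, against -0.13 for all genes. ZNF423, a zinc finger partner of SMAD proteins in BMP signalling, was furthest from 0 in 3D, at -2.45 with pair medians of -0.39, 0.04 and -6.97. Its limma estimate was -1.66 ± 0.82 (adjusted p = 0.990). Leaving out the 3 thin libraries gave 0.04. No gene of either list was called in the sorts or at day 25 by limma.

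The 6 ZNF genes with fewer than 3 guides entered no gene test. ZNF487, ZNF525, ZNF595 and ZNF66 had 1 guide each and ZNF678 and ZNF852 had 2. The median of the 14 libraries lay between 61.9 CPM (ZNF525) and 207 CPM (ZNF678). ZNF852 was at 0.197 CPM in day 0 replicate 2, against 143 CPM in day 0 replicate 1, and ZNF525 was at 0.158 CPM in 3D TNNT2- replicate 3 and 0.0817 CPM in 3D TNNT2+ replicate 3.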

How the data were processed

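Guide abundance was measured in 14 libraries of H9 cells. The authors deposited a table for 2D and one for 3D. Each guide has a normalized signal in them, reads over a library size factor, as the deposited values show. MAGeCK and the build hg38 are named in the submitters' processing notes. For MAGeCK, version and normalization setting were not given in the sources used here. Whole reads, within 0.001, were recovered with the lowest non-zero value of a column as divisor, and these were used for totals, CPM, edgeR and DESeq2. Intervals from read counts alone were not given, since PCR reads carry no molecular identifiers. The SEs come from the spread between libraries.

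Genes with 3 or more guides whose mean value reached 10 were tested with limma 3.58.1 in R 4.3.3, with edgeR 4.0.16 (quasi-likelihood) and DESeq2 1.42.0 as alternatives. The scripts ran in Python 3.11.15. The gene test was also run on simulated counts with a fixed spread per system and no loss of guides. That run therefore cannot show how the test behaves with thin libraries. The main sort fits did not pair the fractions. For day 25, both fractions of a replicate number were averaged and compared with the 2 day 0 libraries. For the difference between systems the reads of 12 libraries were scaled together.

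Fractions with the same replicate number were read as 1 differentiation, since the protocols in the labels describe 3 biological replicates sorted into both fractions. Same-numbered fractions had residual correlations of 0.132, 0.121 and 0.153 in 2D; the 3D ones were 0.106, 0.0467 and 0.0694, and 2 of these missed 0.1. Genes were named by rule: ZNF10, ZNF107, ZNF491 and ZNF813 in every comparison, the leading genes with 1 sign in every pair (5 a side in a sort, 3 a side at day 25, by the smallest pair median), up to 4 a side with 1 sign in all 6 pairs of both sorts, called genes, and the leading member of each list. Others, such as those with all 7 guides on 1 side and the DESeq2 calls, were named after their values were seen. The members and lists were chosen with earlier results of these data known. Protein features such as finger number and the KRAB domain, and guide sequences, were not analysed here.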

Additional observations from a re-analysis of the deposited data

How the results depend on the processing

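In the sorts, and for the 3D minus 2D difference, no alternative that was run called a ZNF gene. The SD of gene medians in the 3D sort was 0.398 without the 3 thin libraries, against 0.871. With the replicate block (pairing of same-numbered fractions) 0 ZNF genes were called in either sort, so it changed no call. The main sort fits had no such block, so their SE and p are unpaired. With the block the 3D SE was 0.66 for ZNF333, against 1.11, and 0.70 for ZNF491, against 1.10. For ZNF10 it was larger, at 0.70 against 0.64. Day 25 calls depended on the setting: DESeq2 called 3 higher and 6 lower in 2D and 2 higher in 3D, a pseudocount of 1 called 1 in 3D (ZNF292), and leaving out a day 0 library gave 4 to 360 higher and up to 21 lower in 2D and up to 102 higher in 3D, the high counts without replicate 1, when thin replicate 2 stands alone. The pseudocount of 1 called 0.247% of all genes in 3D. Fits without a day 0 library leave only the other one in that group. All genes were called in them at rates like those of the ZNF genes. Without replicate 1 the median limma estimate of all genes was 1.55 in 2D and 1.18 in 3D. With both day 0 libraries it was 0.82 and 0.70. The calls from these fits therefore do not set the ZNF genes apart. Leaving out a day 0 library was chosen after seeing the data, and fewer pairs then had to share a sign. In 2D it put 122 to 185 ZNF genes higher in every pair (26.7% to 40.5%), against 26.6% to 39.8% of all genes. On the lower side it put 108 to 189 (23.6% to 41.4%), against 22.3% to 43.8%. In 3D it put 154 to 191 higher (33.7% to 41.8%), against 33.5% to 39.1%. There 17 to 94 were lower (3.72% to 20.6%), against 3.33% to 19.4%. With the mean over guides 2D had 143 and 10, and 3D had 117 and 9, with no share over all genes beside them. The limma estimates, also from the mean over guides, were shifted for all genes, with medians of 0.82 in 2D and 0.70 in 3D. These counts are therefore not a result about the ZNF genes. Without a day 0 library the SD was 0.337 to 2.69 in 2D and 0.550 to 2.25 in 3D, the low values without replicate 2. On deposited values summed over guides, also chosen after seeing the data, 2 and 4 ZNF genes did not overlap in the 3D sort. By summed CPM these counts were 15 and 20. The share over all genes is not given for the deposited values, so the 2 and 4 have no background beside them.

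Of 1043 alternative values of 62 named results, 971 kept direction and side of the threshold, 12 passed it and 60 changed sign. The cause was not tested. Day 25 values here are minus the median of all genes, while sort values are not. In the 3D sort that median was -0.08 in the main fit. It was -0.31 on values summed over guides and -0.36 without TNNT2+ replicate 3. A change of sign in these fits does not by itself set a gene apart from all genes. Taking the median of the guides the sign changed for ZNF107, 2D sort (0.47), ZNF491, 2D sort (-0.0145), ZNF670, 3D sort (0.50), ZNF107, 2D day 25 (-0.21), ZNF670, 2D sort (-0.17), ZNF333, 3D sort (1.55), ZNF770, 2D sort (0.0146), ZNF488, 2D sort (0.0779). On values summed over guides the sign changed for ZNF491, 2D sort (-0.12), ZNF107, 3D sort (-0.37), ZNF813, 3D sort (-0.42), ZNF670, 3D sort (0.15), ZNF583, 3D sort (-0.39), ZNF491, 3D day 25 (-0.19), ZNF205, 3D day 25 (0.0167), ZNF488, 3D sort (-0.24). With edgeR the sign changed for ZNF491, 2D sort (-0.0667), ZNF107, 3D sort (-0.32), ZNF813, 3D sort (-0.0684), ZNF670, 3D sort (0.42), ZNF583, 3D sort (-0.14), ZNF491, 3D day 25 (-0.17), ZNF205, 3D day 25 (0.028). With DESeq2 the sign changed for ZNF491, 2D sort (-0.071), ZNF107, 3D sort (-0.33), ZNF813, 3D sort (-0.0845), ZNF670, 3D sort (0.41), ZNF583, 3D sort (-0.15), ZNF491, 3D day 25 (-0.17), ZNF205, 3D day 25 (0.028). Without the 3 thin 3D libraries the sign changed for ZNF107, 3D sort (-0.56), ZNF491, 3D sort (0.25), ZNF813, 3D sort (-0.25), ZNF670, 3D sort (0.31), ZNF107, 3D day 25 (0.27), ZNF205, 3D day 25 (0.36), ZNF770, 3D sort (0.19), ZNF423, 3D sort (0.0413). With a pseudocount of 100 the sign changed for ZNF813, 3D sort (-0.019), ZNF491, 3D day 25 (-0.0488). With 1 library left out at a time the values that spanned 0 were ZNF107, 3D sort (-0.84 to 0.97), ZNF813, 3D sort (-0.65 to 0.38), ZNF670, 3D sort (-0.91 to 0.51), ZNF107, 2D day 25 (-0.56 to 0.45), ZNF813, 2D day 25 (-1.20 to 0.0952), ZNF491, 3D day 25 (-0.55 to 0.71), ZNF316, 2D sort (-0.0147 to 0.14), ZNF316, 3D sort (-0.16 to 1.46), ZNF333, 3D sort (-1.01 to 0.22), ZNF488, 3D sort (-0.23 to 0.48). The thin libraries were not shallow in total reads, and what depth limits was not tested further.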
